A study of Mus musculus with 6 samples.

Results

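Haem and iron handling was followed through 10 mouse genes: Hmox1, Blvrb, Fth1, Ftl1, Tfrc, Slc40a1, Slc11a2, Cp, Aco1 and Ireb2. They were listed by symbol, and each had 1 row among the 18908 gene rows of the deposited count table. The list was chosen by role with the CPM difference between the labelled groups already known, so the levels and differences of these genes are given as a description with no test. RNA was sequenced from 6 libraries labelled as bone marrow-derived macrophages. In 3 of them the labels give an shRNA against VprBP and the genotype VprBP1 Knockdown, and the other 3 carry a control shRNA and are labelled WT. The labels give neither strain, sex, age, hairpin nor time after the hairpin. Nothing in them ties a library to its own animal or culture, so the errors and p-values below cover the spread among 3 libraries, possibly a technical one.

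Iron enters most cells as transferrin, taken up by the transferrin receptor Tfrc, and leaves the endosome through Slc11a2. It is stored inside ferritin, a shell of Fth1 and Ftl1 chains, and leaves through ferroportin, Slc40a1, helped by ferroxidases such as ceruloplasmin, Cp. Haem oxygenase 1, Hmox1, opens the haem ring and frees its iron, and macrophages use it with ferroportin to recycle iron from aged red cells. Aco1 and Ireb2, the iron regulatory proteins, bind hairpins called iron-responsive elements when iron is scarce. Binding near the start of a transcript blocks its translation, and binding in the 3′ UTR of Tfrc protects that transcript from decay.

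Total counts were 17825340 to 18407356 in the VprBP-labelled and 16839445 to 21838875 in the control-labelled libraries. Dcaf1, the targeted gene (VprBP), stood at 36.0, 34.6 and 36.8 CPM in VprBP-labelled and 42.2, 43.5 and 40.7 CPM in control-labelled libraries, where CPM is the count relative to library size after TMM scaling. Its level under the VprBP label was 84.9% of that under the control label (log2 difference -0.24, SE 0.07, edgeR adjusted p = 0.00625; two-sided exact permutation p = 0.1, the smallest that 3 against 3 libraries allow), so every direction below is one between labels. With scaling by library size only Dcaf1 was not called (edgeR adjusted p = 0.137). Of 12 macrophage markers only 4 had a row, which needs at least 10 counts over the 6 libraries. Csf1r, Adgre1, Itgam, Spi1, Tyrobp, Aif1, Fcgr1 and Ptprc had none, and the 4 summed to 16.5 to 18.2 CPM in VprBP-labelled and 37.1 to 40.2 CPM in control-labelled libraries. Of the 4, Cd68 alone was called lower (1.01 CPM in VprBP-labelled and 31.6 CPM in control-labelled libraries), while Lyz2 and Mertk were called higher and Cd14 was not called. All 10 pigment cell markers had a row, with sums of 19661 to 20172 and 21090 to 21470 CPM in VprBP-labelled and control-labelled libraries. Of these 10 genes 5 were called higher, Tyr, Sox10, Mitf, Dct and Tyrp1 (log2 differences 1.92, 1.81, 1.78, 0.59 and 0.08). Those called lower were 4, Slc45a2, Pmel, Mlana and Trpm1 (-1.93, -1.48, -1.42 and -1.20), and Oca2 was not called. Of all tested genes 75.0% were called. Dct and Tyrp1 averaged 8737 and 7166 CPM in VprBP-labelled and 5807 and 6778 CPM in control-labelled libraries. Of 10 erythroid markers 7 had a row, with sums of 11.5 to 14.8 CPM in VprBP-labelled and 5.25 to 7.75 CPM in control-labelled libraries; Hbb-bs, Hbb-bt and Rhag had none. Epor was the largest part of the erythroid sum (10.6 CPM in VprBP-labelled and 3.42 CPM in control-labelled libraries). Klf1, the other tested marker, averaged 0.805 and 2.48 CPM in VprBP-labelled and control-labelled libraries and was called lower (log2 difference -1.63). The markers thus go against the labelled cell type, and whether the table holds RNA of the labelled cells could not be settled from the files. Every value set by label below carries this doubt. Mitochondrial genome transcripts took 4.89% to 5.56% of the counts in VprBP-labelled and 8.65% to 9.48% in control-labelled libraries. The part of these differences in the results below was not tested. In bulk RNA, fewer cells of a type and less RNA per cell cannot be told apart.

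The transcripts of 4 of the 10 genes hold a hairpin matching the letters of the iron-responsive element, shown here because it is the site through which Aco1 and Ireb2 act. The search asked for the loop CAGTGN between 5 bases on each side able to pair with each other, G with U allowed, and a C just before the first of them, on the transcript strand of GENCODE M21 coding transcripts (GRCm38). Each line gives 30 bases, 5′ to 3′, written as DNA, with the CAGTGN loop in capitals.
Fth1, 5′ UTR, chr19:9982732-9982761, plus strand: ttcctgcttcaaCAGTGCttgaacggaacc
Ftl1, 5′ UTR, chr7:45459778-45459807, minus strand: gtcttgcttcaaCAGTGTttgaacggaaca
Slc40a1, 5′ UTR, chr1:45925464-45925493, minus strand: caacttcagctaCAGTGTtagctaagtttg
Tfrc, 3′ UTR, site 1, chr16:32631219-32631248, plus strand: aattatcggaagCAGTGCcttccataatta
Tfrc, 3′ UTR, site 2, chr16:32631598-32631627, plus strand: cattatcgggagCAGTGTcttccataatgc
Tfrc, 3′ UTR, site 3, chr16:32631663-32631692, plus strand: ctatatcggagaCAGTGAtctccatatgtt
Tfrc, 3′ UTR, site 4, chr16:32631710-32631739, plus strand: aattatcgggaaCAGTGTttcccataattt

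The same search found a 5′ UTR match in 0.142% and a 3′ UTR match in 0.589% of 21901 protein-coding genes. The Fth1 and Ftl1 windows were identical at 26 of 30 bases and at 16 of the 17 bases of the motif. The element of Fth1 lay in 4 of its 5 coding transcripts, that of Ftl1 in 1 of 2, that of Slc40a1 in 1 of 4 and those of Tfrc in 1 of 3. The counts are per gene and do not show which of these transcripts were present. Slc11a2, known to have an element of irregular shape, gave no match to these letters, and neither did Hmox1, Blvrb, Cp, Aco1 and Ireb2.

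All 10 genes passed the filter on low counts, and for each the VprBP-labelled and control-labelled libraries did not overlap. The genes Cp, Slc40a1, Fth1, Tfrc, Ireb2 and Aco1 were higher under the VprBP label, and Hmox1, Ftl1, Slc11a2 and Blvrb lower. Of all 14641 genes tested, 77.2% showed no overlap (39.0% higher and 38.2% lower), and 75.0% were called at an edgeR adjusted p below 0.05 (37.9% higher and 37.0% lower). The 10 of 10 without overlap, which are also 10 of 10 called, were chosen with this contrast known, and nothing is read from their number. Differences exceeded 2-fold for 4 of the 10, against 34.5% of all tested genes.

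**Figure D1:**
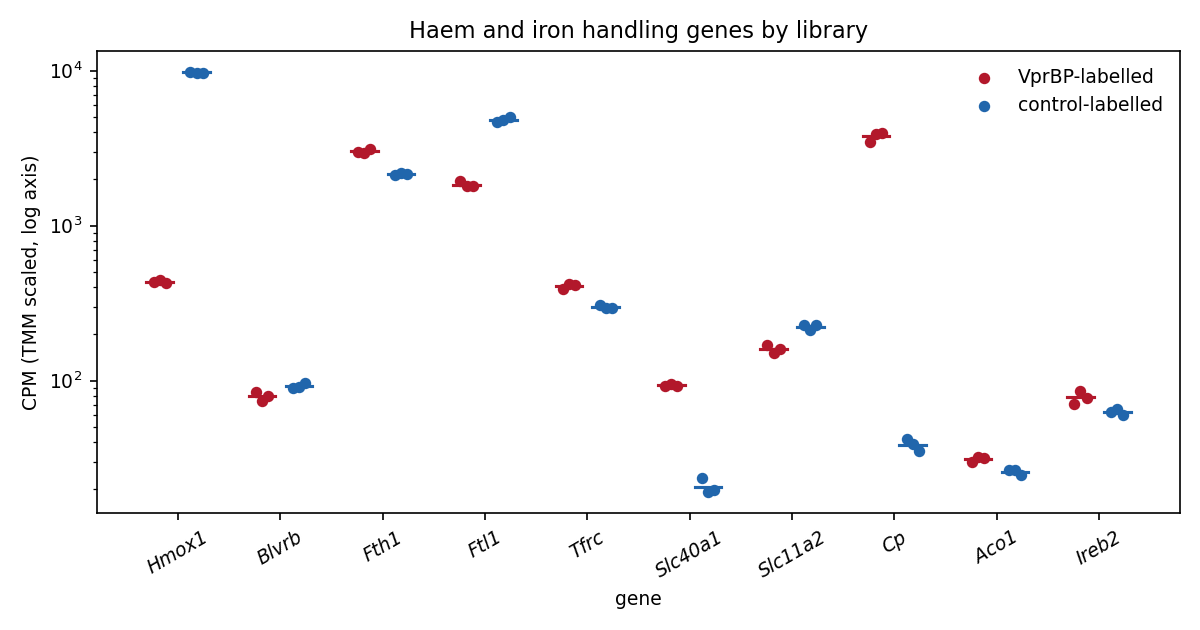
Level of each of the 10 genes in CPM (log axis) in the 3 VprBP-labelled and 3 control-labelled libraries, each point a library and each line a group mean. Hmox1 and Cp lie far apart between the labels in opposite directions, and the libraries of a group lie close together.

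Haem breakdown differed mainly in its first enzyme. Hmox1, the inducible haem oxygenase (GRCm38 chromosome 8, 75093621 to 75100589, plus strand), had 432, 444 and 428 CPM in VprBP-labelled libraries, against 9828, 9699 and 9713 CPM in control-labelled libraries. It was lower in all 3 VprBP-labelled libraries, by 22.4-fold on the means fitted by edgeR (log2 difference -4.49, 95% interval -4.56 to -4.41), and 2.05% of tested genes differed by more. Its transcript took 0.0446% to 0.0462% of all counts under the VprBP label and 0.930% to 0.940% under the control label. Per kb of exon it ranked 126th of 14310 genes in the VprBP-labelled and 9th in the control-labelled libraries.

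Hmox2, the constitutive haem oxygenase, did not follow. It had 29.8, 37.3 and 38.0 CPM in VprBP-labelled and 30.4, 30.9 and 28.7 CPM in control-labelled libraries, and these overlapped. Its log2 difference of 0.22 (SE 0.09, edgeR adjusted p = 0.0373) was called, and the call was lost without control-labelled library 1, 2 or 3 or VprBP-labelled library 2 or 3 (adjusted p = 0.0689, 0.0642, 0.131, 0.125 and 0.157). Within a library, which needs no scaling, the counts of Hmox1 were 14.5, 11.9 and 11.3 times those of Hmox2 under the VprBP label and 323, 314 and 339 times under the control label.

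The next step, from biliverdin to bilirubin, differed little. Blvrb, biliverdin reductase B, which also reduces flavins, had 84.3, 74.1 and 79.2 CPM in VprBP-labelled and 89.6, 90.4 and 95.9 CPM in control-labelled libraries. The log2 difference was -0.22 (95% interval -0.34 to -0.09), smaller in size than that of 82.8% of tested genes. With scaling by library size only it was -0.10, while the median of all genes moved by 0.12 to 0.10, and Blvrb was then not called. Blvra, biliverdin reductase A, averaged 19.2 ± 1.84 CPM in VprBP-labelled and 18.1 ± 1.94 CPM in control-labelled libraries (SD, n = 3 each) and was not called (edgeR adjusted p = 0.477). The ratio of Blvrb to Blvra counts was 3.71 to 4.60 in VprBP-labelled and 4.45 to 5.54 in control-labelled libraries, which overlap.

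The ferritin chains differed in opposite directions. Fth1, the heavy chain, which carries the ferroxidase site (chromosome 19, 9980598 to 9985098, plus strand), had 2994, 2961 and 3131 CPM in VprBP-labelled libraries, against 2128, 2178 and 2165 CPM in control-labelled libraries. Ftl1, the light chain, which helps the iron core form (chromosome 7, 45457944 to 45459884, minus strand), had 1929, 1807 and 1789 CPM in VprBP-labelled libraries, against 4633, 4792 and 5003 CPM in control-labelled libraries. Fth1 was thus higher in every VprBP-labelled library and Ftl1 lower, with log2 differences of 0.49 (95% interval 0.42 to 0.56) and -1.38 (-1.47 to -1.30).

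The ratio of the chains within a library differed. There were 0.644, 0.610 and 0.571 Ftl1 counts per Fth1 count under the VprBP label and 2.18, 2.20 and 2.31 under the control label, a 3.67-fold difference that does not depend on scaling. These are counts and not levels per length. Divided by annotated exon length (3469 bases for Fth1 and 1340 for Ftl1), Ftl1 lay above Fth1 under both labels. That order rests on the annotation, because the counts do not show which transcripts were present. The summed level of the chains was 4870 ± 89.1 CPM in VprBP-labelled and 6967 ± 204 CPM in control-labelled libraries (SD, n = 3 each). The 5′ UTR elements printed above stand in both genes. Such elements act on translation, which was not measured, and their part in these levels was not tested.

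**Figure D2:**
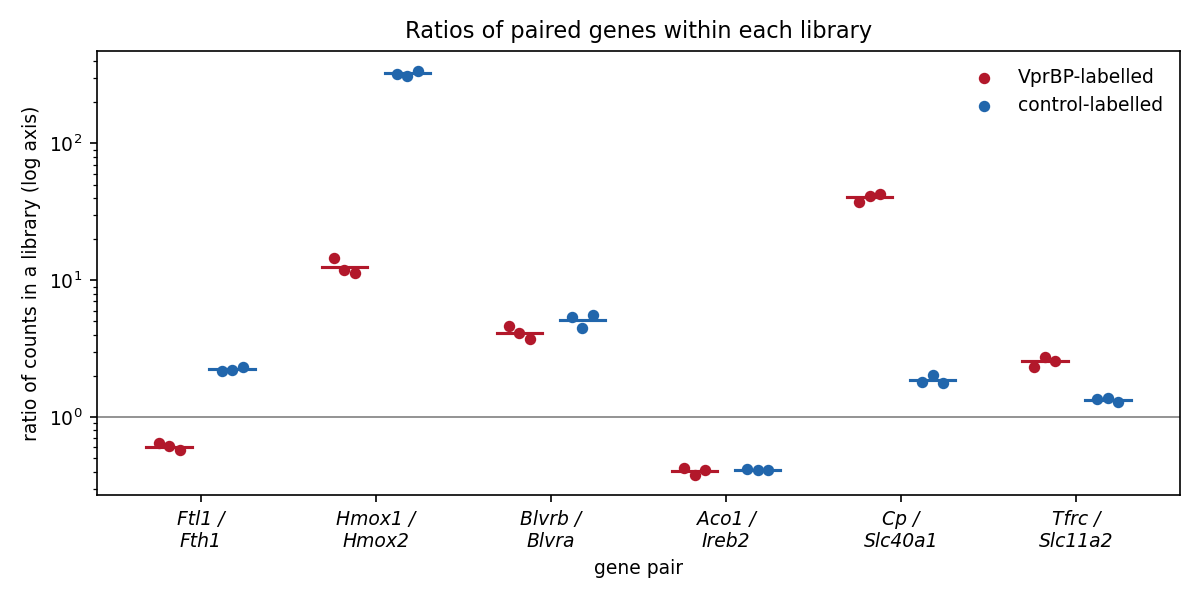
Ratio of the counts of paired genes within each library (log axis; the grey line marks equal counts), each point a library and each line a group mean, VprBP-labelled left of control-labelled. The Ftl1 to Fth1 ratio lies below 1 in the 3 VprBP-labelled libraries and above 1 in the 3 control-labelled libraries, and the Aco1 to Ireb2 ratio overlaps between labels.

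Near-identical copies and overlapping genes make the ferritin levels uncertain. Ftl1-ps1, picked after its values were seen because it is a close copy of Ftl1, held 6.71% to 7.72% of the Ftl1 level in VprBP-labelled and 5.74% to 6.61% in control-labelled libraries. Summed with Ftl1 it gave 1973 ± 78.3 CPM in VprBP-labelled and 5112 ± 214 CPM in control-labelled libraries (SD, n = 3 each), a 2.59-fold difference beside 2.61-fold for Ftl1 alone. Fth-ps2 averaged 0.216 and 0.462 CPM in VprBP-labelled and control-labelled libraries. Gm10252, on the other strand, shares 355 of the 1340 exon bases of Ftl1 and averaged 3.23 and 12.5 CPM in VprBP-labelled and control-labelled libraries, and with no stated strand setting its reads and those of Ftl1 cannot be told apart.

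The iron uptake genes differed by less than 1.5-fold and in opposite directions. Tfrc, the transferrin receptor (chromosome 16, 32608920 to 32632794, plus strand), had 392, 420 and 413 CPM in VprBP-labelled libraries, against 307, 295 and 294 CPM in control-labelled libraries. Slc11a2, the transporter that carries iron out of the endosome (chromosome 15, 100387898 to 100425072, minus strand), had 169, 151 and 161 CPM in VprBP-labelled libraries, against 227, 212 and 228 CPM in control-labelled libraries. The log2 differences were 0.45 (95% interval 0.36 to 0.54) for Tfrc and -0.47 (-0.58 to -0.36) for Slc11a2. Tfrc counts were 2.32, 2.77 and 2.57 times those of Slc11a2 under the VprBP label and 1.35, 1.39 and 1.29 times under the control label. Gm5475, on the other strand, shares 402 of the 6354 exon bases of Slc11a2 and averaged 0.194 and 0.0612 CPM in VprBP-labelled and control-labelled libraries.

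Both iron export genes were higher under the VprBP label, by different amounts. Slc40a1, ferroportin, the iron exporter (chromosome 1, 45908068 to 45926523, minus strand), had 92.9, 94.6 and 92.1 CPM in VprBP-labelled libraries, against 23.4, 19.1 and 19.8 CPM in control-labelled libraries. It was 4.47-fold higher in the VprBP-labelled libraries (log2 difference 2.16, SE 0.08).

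Cp, the copper ferroxidase ceruloplasmin, which oxidises iron as it leaves (chromosome 3, 19957054 to 20009145, plus strand), had 3469, 3910 and 3945 CPM in VprBP-labelled libraries, against 41.9, 39.0 and 35.0 CPM in control-labelled libraries. The log2 difference was 6.61 (95% interval 6.46 to 6.75), and 0.546% of tested genes differed by more. Counts of Cp were 37.3, 41.3 and 42.8 times those of Slc40a1 under the VprBP label and 1.79, 2.04 and 1.77 times under the control label. Hps3, on the other strand, shares 108 of the 9566 exon bases of Cp and averaged 26.1 and 48.9 CPM in VprBP-labelled and control-labelled libraries. Heph, hephaestin, a membrane ferroxidase related to ceruloplasmin, was scarce, with 81 counts over the 3 VprBP-labelled and 3 over the 3 control-labelled libraries, a ratio of scaled counts of 25.8 (95% counting interval 8.53 to 128, counting error only). Its fitted log2 difference was 4.52, and was 3.88 without control-labelled library 1 and 5.43 without control-labelled library 2, so its size is uncertain.

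The iron sensors were higher together by a small amount. Aco1, iron regulatory protein 1, which is also the cytosolic aconitase (chromosome 4, 40143081 to 40198338, plus strand), had 29.8, 32.2 and 31.8 CPM in VprBP-labelled libraries, against 26.4, 26.6 and 24.6 CPM in control-labelled libraries. Ireb2, iron regulatory protein 2 (chromosome 9, 54863789 to 54912530, plus strand), had 70.7, 85.4 and 77.9 CPM in VprBP-labelled libraries, against 63.2, 65.4 and 60.1 CPM in control-labelled libraries. The log2 differences were 0.27 (95% interval 0.10 to 0.45) and 0.31 (0.16 to 0.46), and 77.9% and 74.9% of tested genes differed by more. The ratio of Aco1 to Ireb2 counts was 0.377 to 0.422 in VprBP-labelled and 0.408 to 0.417 in control-labelled libraries and overlapped between the labels.

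**Figure D3:**
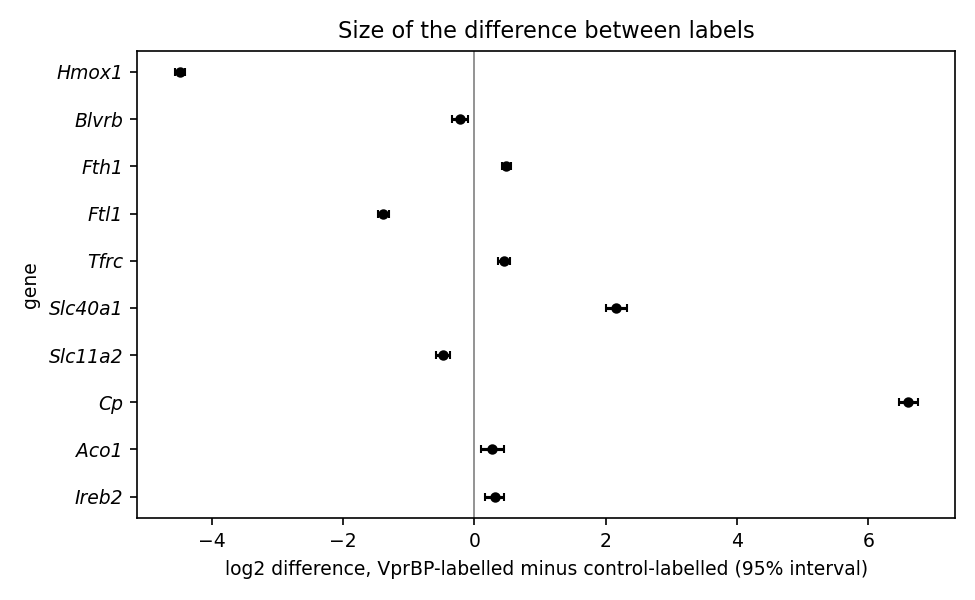
Log2 difference, VprBP-labelled minus control-labelled, of each of the 10 genes with its 95% interval from edgeR. Cp at 6.61 and Hmox1 at -4.49 lie at the ends, and 6 genes lie within 1 of zero.

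Levels of different genes were compared per kb of exon, as CPM divided by the union of a gene's annotated exons. The lengths of the transcripts present are not known, so these orders rest on the annotation. In the VprBP-labelled libraries Ftl1 was highest at 1374 ± 57.0 CPM per kb, followed by Fth1 at 873 ± 25.9 and Cp at 395 ± 27.7 (SD, n = 3). Then came Hmox1 at 248 ± 4.79 and Tfrc at 66.0 ± 2.34 CPM per kb, and Blvrb, Slc11a2, Slc40a1, Ireb2 and Aco1 between 28.5 and 6.96 CPM per kb. In the control-labelled libraries Hmox1 was highest at 5566 ± 40.7 CPM per kb, followed by Ftl1 at 3589 ± 139 and Fth1 at 622 ± 7.42 (SD, n = 3). Tfrc, Slc11a2, Blvrb, Ireb2, Aco1, Cp and Slc40a1 followed, between 48.3 and 2.31 CPM per kb. Cp ranked 77th of 14310 genes by this measure in the VprBP-labelled and 7563rd in the control-labelled libraries. Of neighbours in these orders, Slc11a2 and Blvrb overlapped in the control-labelled libraries, and in the VprBP-labelled ones Blvrb exceeded Slc11a2 by 3.22 CPM per kb, less than the sum of their SDs (3.23). With the longest transcript as the length, the order stayed as it was in the VprBP-labelled libraries, and 5 of the 10 genes changed place in the control-labelled ones.

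The wider pathway was described through 78 other genes in lists by role. Of these, 70 had a row and 68 passed the filter. Under the VprBP label 24 rose, 28 fell and 16 were not called. The called share, 76.5%, lies near the 75.0% of all tested genes, and the median log2 difference was -0.01 over both the 68 and all tested genes. The split by direction depended on scaling: 27 were higher and 26 lower by library size only, and 21 and 29 by upper quartile. By library size only, haem and porphyrin transport and scavenging had 3 higher and 6 lower. The mitochondrial list then had 5 higher and 7 lower, and cytosolic cluster assembly 3 and 4. By upper quartile, haem synthesis had 4 higher and 2 lower, iron uptake 4 and 3, the mitochondrial list 2 and 7, and haem breakdown 0 and 0. The splits of each list given below are those with TMM scaling. The lists were written from textbook roles, with earlier results of these data known.

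Among haem synthesis genes, 5 were higher, 2 lower and 1 not called of 8 tested, with a median log2 difference of 0.20, and Alas2, the erythroid enzyme of the first step, had no row. Cpox, which makes protoporphyrinogen in mitochondria, was lowered most, at 70.5 ± 1.38 CPM in VprBP-labelled and 173 ± 6.94 CPM in control-labelled libraries (log2 difference -1.29, SE 0.05). Alas1, which catalyses the first step outside the erythroid lineage, was also lower (41.1 ± 4.57 against 56.3 ± 2.51 CPM). Alad, the enzyme of the next step, was higher by a log2 difference of 0.71 (SE 0.12).

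Among 13 tested genes of haem and porphyrin transport and scavenging, 3 were higher, 8 lower and 2 not called (median -0.43). Flvcr1, a haem exporter that also carries choline, fell to 25.7 ± 1.31 CPM in VprBP-labelled libraries, against 108 ± 3.72 CPM in control-labelled libraries (log2 difference -2.07, SE 0.06). Slc25a38, a mitochondrial glycine carrier used in haem synthesis, and Abcb6, a porphyrin transporter, were lower by log2 differences of -1.91 (SE 0.15) and -1.42 (SE 0.06). Lrp1, an endocytic receptor that takes up haem bound to hemopexin among many other ligands, rose to 1078 ± 84.6 CPM in VprBP-labelled libraries, against 172 ± 3.42 CPM in control-labelled libraries (log2 difference 2.65, SE 0.05). Of the scarce genes of this list, picked after their values were seen, haptoglobin, Hp, had 105, 114 and 136 counts in VprBP-labelled libraries and none in control-labelled libraries, at least 113-fold higher against 3 counts over the group. Hemopexin, Hpx, had 5, 2 and 0 counts in VprBP-labelled and 39, 38 and 23 counts in control-labelled libraries (log2 difference -3.83, SE 0.65). Cd163, the macrophage receptor for haemoglobin bound to haptoglobin, had no row.

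Beside Tfrc and Slc11a2, 4 of 9 tested iron uptake genes were higher, 2 lower and 3 not called. Trf, transferrin itself, rose to 752 ± 23.9 CPM in VprBP-labelled libraries, against 65.0 ± 3.77 CPM in control-labelled libraries (log2 difference 3.53, SE 0.05). Tfr2, a second transferrin receptor, and Steap2, a metalloreductase, were higher by log2 differences of 1.72 (SE 0.12) and 1.13 (SE 0.06). Steap1, a relative of Steap2, fell to 24.9 ± 2.74 CPM in VprBP-labelled libraries, against 110 ± 1.20 CPM in control-labelled libraries. Slc39a14, a transporter of iron not bound to transferrin, was lower by a log2 difference of -0.36 (SE 0.05).

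The partners of ferritin and of the sensors differed by less than 2-fold, Hfe excepted. Ncoa4, the receptor that delivers ferritin to lysosomes, was not called, at 75.5 ± 7.52 CPM in VprBP-labelled and 73.7 ± 3.42 CPM in control-labelled libraries (edgeR adjusted p = 0.673). Of the iron chaperones, Pcbp2 was higher (log2 difference 0.63, SE 0.05) and Pcbp1 lower (-0.26, SE 0.05). Fbxl5, the ubiquitin ligase subunit that removes Ireb2 protein when iron is plentiful, was higher at 43.6 ± 2.30 CPM in VprBP-labelled and 29.3 ± 2.48 CPM in control-labelled libraries (0.57, SE 0.08). Hfe, a partner of transferrin receptors, was higher at 46.4 ± 2.90 CPM in VprBP-labelled and 19.7 ± 0.281 CPM in control-labelled libraries. Of the hormone system of the liver, Hamp, the gene of hepcidin, and Bmp6 had no row, and Hjv and Tmprss6 had too few counts to be tested.

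Of 16 genes of mitochondrial iron import and iron-sulphur cluster assembly, 3 were higher, 7 lower and 6 not called (median -0.19). Slc25a28, an iron importer of mitochondria, was lower at 20.8 ± 1.57 CPM in VprBP-labelled and 61.5 ± 2.17 CPM in control-labelled libraries (log2 difference -1.56, SE 0.08). Hscb, a co-chaperone, Fdx1, a ferredoxin, and Nfu1, a cluster carrier, were lower by log2 differences of -1.39 (SE 0.15), -0.80 (SE 0.11) and -0.79 (SE 0.07). Of 7 genes of cytosolic cluster assembly, 2 were higher, 4 lower and 1 not called (median -0.90). Those lower were Ciao2b, Ciapin1, Ciao3 and Nubp2, with log2 differences of -1.27 (SE 0.13), -1.18 (SE 0.07), -1.02 (SE 0.09) and -0.90 (SE 0.08).

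Regulators of haem-responsive transcription were measured beside Hmox1. BACH1 is a haem-sensing repressor of Hmox1, NRF2 (Nfe2l2) an activator held back by KEAP1, and both bind DNA paired with small MAF proteins. Nfe2l2 was not called, at 216 ± 9.50 CPM in VprBP-labelled and 219 ± 9.34 CPM in control-labelled libraries (SD, n = 3 each; edgeR adjusted p = 0.778). Bach1 was lower at 39.1 ± 2.81 CPM in VprBP-labelled and 60.9 ± 3.78 CPM in control-labelled libraries (log2 difference -0.64, SE 0.07), and Keap1 higher (0.53, SE 0.11). The small MAF genes Mafk, Mafg and Maff were all lower, with log2 differences of -2.48 (SE 0.08), -1.18 (SE 0.05) and -1.16 (SE 0.16). Over the 7 genes of this list 2 were higher, 4 lower and 1 not called (median -0.64). The letters TGACNNNGC, the core to which NRF2 and small MAF pairs bind, were searched on both strands of RefSeq promoter windows (GRCm38.p6, 250 bases before to 50 after a start). None of the 11 windows of the 7 matched genes of the 10 held them, and 12.4% of all 32851 windows did. So few short windows cannot show that these genes lack such sites. Hmox1, Slc40a1 and Slc11a2 were not matched.

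**Figure D4:**
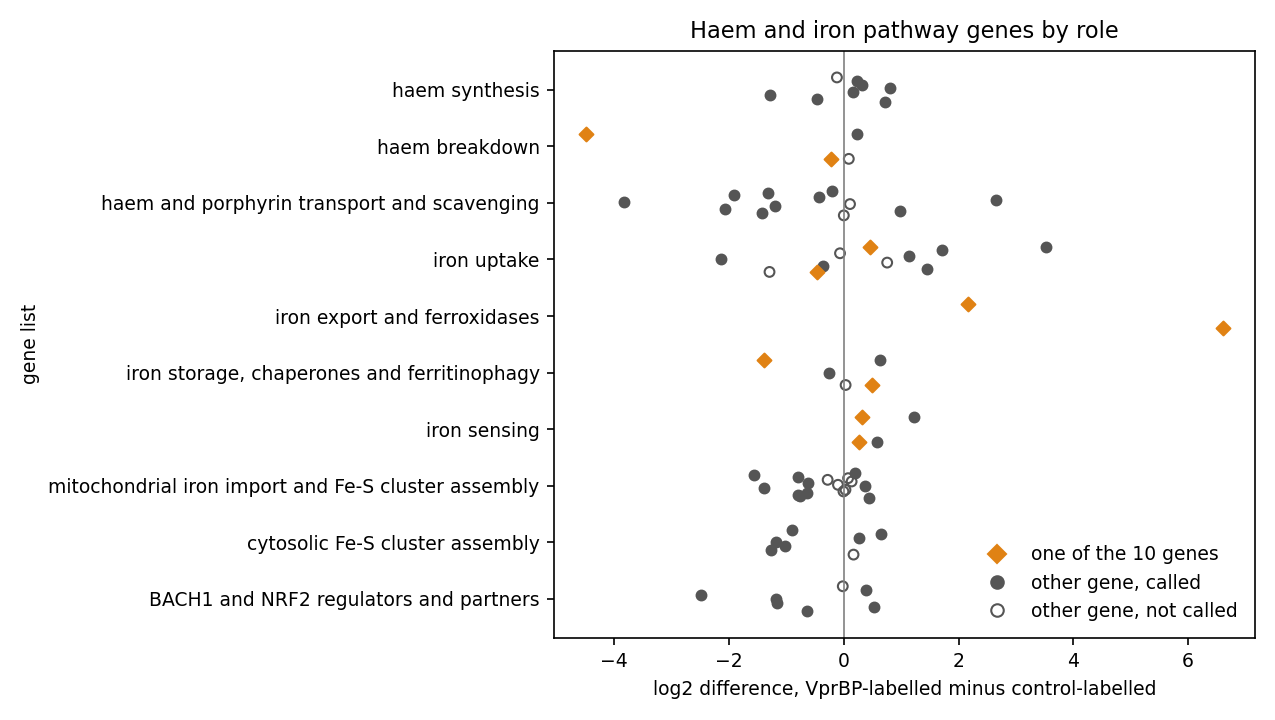
Log2 difference, VprBP-labelled minus control-labelled, of the tested genes of each pathway list, with the 10 genes as diamonds and the others as circles, filled where called. Hp and Heph are left out because they had at most 3 counts in a group. Cytosolic cluster assembly has 4 of its 7 genes called lower, 2 called higher and 1 not called. Of all tested genes 37.0% were called lower and 37.9% higher.

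The genes whose profiles lay closest to 3 of the 10 over the 6 libraries were found by the distance between log2 CPM values centred on each gene's mean, among 9307 other genes averaging 10 CPM or more. Closest to Hmox1 were Cd68 (distance 0.394), Hspa1b (0.515) and Zfand2a (0.678). Among those closest to Cp were Kcna5 (0.409) and Atp1b2 (0.725), and closest to Tfrc were Sgce (0.0346), Ddx5 (0.0410) and Set (0.0441). Before the log2, 0.5 CPM was added to each value, which shrinks the differences of genes scarce under a label. With 2 groups of libraries the distance reflects mainly the size of the difference between them after that addition, not the fitted one. Hspa1b and Zfand2a averaged 7.87 and 12.7 CPM in VprBP-labelled libraries, against 226 and 204 CPM in control-labelled libraries.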

How the data were processed

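The deposited table holds expected counts per gene, estimated by the authors and not scaled between libraries. Partek software and mouse build mm10 (GRCm38) are named per the submitters' processing notes, and library preparation with a SMARTer kit is given in the labels' protocols. The sources used here do not name the aligner, counter, strand setting or annotation. Of 18908 IDs, 18501 matched GENCODE M21 with the same coordinates. Rounded counts went into edgeR 4.0.16 under R 4.3.3 (quasi-likelihood F test, TMM, filterByExpr, group as the only term). The fit covered 14641 genes, with Benjamini-Hochberg adjustment at 0.05. The procedure was tested on simulated counts in which few genes differed, equally many in each direction. In the data 75.0% of tested genes were called, so the simulation does not cover scaling under so many differences. Intervals are 95%. The members and lists were chosen with earlier results of these data known, so differences of the 10 genes are descriptions. From each pathway list the text names up to 4 called genes, by size of difference among those averaging 5 CPM or more, plus fixed partners; some genes that this rule picks are not reported here. Library pairs within a group differed by 3.14 to 5.91 times sampling noise (chi-square per degree of freedom), so all 6 counted separately. A count of 0 allows up to 0.144 to 0.186 CPM, taken as 3 counts, counting error only. Alternatives used DESeq2 1.42.0 and limma 3.58.1.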

Additional observations from a re-analysis of the deposited data

How the results depend on the processing

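Every one of the 10 genes kept its direction in the 14 alternative fits (other scalings, filters and tests, each library left out, and the replicate block). Scaling by library size only raised each log2 difference by about the 0.12 by which it moved the median of all genes, and 9 of the 10 were then called, Blvrb not. Dcaf1 was then -0.12 and not called (adjusted p = 0.137). Leaving out each library in turn gave 10637 to 10774 called genes, 10 of the 10 genes, 48 to 51 other pathway genes against 52, and -0.27 to -0.20 for Dcaf1. The replicate numbers did not pair the libraries (correlations of same-numbered deviations -0.0597, 0.0101 and -0.0469); as a replicate block they gave 10649 called genes, 10 of the 10, 49 other pathway genes and -0.24 for Dcaf1. Of the fixed partner genes that were not called, Ncoa4 and Nfe2l2 changed sign. With each library left out in turn Ncoa4 ranged from -0.042 to 0.098 and Nfe2l2 from -0.049 to 0.027, and Nfe2l2 was 0.10 by library size only. Blvra, also not called, kept its sign with each library left out (0.014 to 0.169). Hmox2 lost its call in 8 fits, among them the block (adjusted p = 0.0575). Adding 0.5 counts left the 6 within-library ratios as they were. The longest transcript was shorter than the exon union for each of the 10 genes, so using it had to raise all 20 levels per kb. Each rose by more than its SD. The cause of the lost calls and changed signs was not tested.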
